A study of Rattus norvegicus with 35 samples.

Results

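The microRNAs (miRNAs) of the miR-15/16 family, with miR-195 and miR-497, were followed in rat liver during dosing with ketoconazole, an azole antifungal drug that can injure the liver. The members were taken by name from a table of mature miRNA counts: 6 of its 763 miRNAs, namely the guide strands miR-15a-5p, miR-15b-5p, miR-16-5p, miR-195-5p and miR-497-5p, and miR-15b-3p, the passenger strand of the miR-15b hairpin. All 6 passed the filter on low counts, with 328 of the 763. The animals were male Sprague-Dawley rats, 6 weeks old and with no genetic change named. Ketoconazole was given by mouth for 3, 7 or 14 days, at 10 mg/kg per day in the low dose groups, 30 in the middle and 100 in the high dose groups. Controls of each day received only the vehicle, 0.5% methylcellulose, and liver was taken 24 h after the last dose. Each of the 12 dose-by-day groups had 3 libraries except control day 14, which had 2. Nothing in the labels says whether the libraries of a group came from different rats. The p-values therefore describe the spread among these samples, which may be technical.

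A miRNA hairpin yields 2 strands. The guide strand is the one mostly loaded into an Argonaute protein, where bases 2 to 8 (the seed) pair with messenger RNAs and repress them, while the passenger strand is mostly degraded. The miR-15/16 family is known for repressing cell cycle and survival genes, among them cyclins and Bcl2, and in the liver miR-15, miR-16, miR-195 and miR-497 have been linked to restraint of hepatocyte division. Mature guides of this family are made in many cell types, miR-16-5p among the most widely.

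The mature sequences, from RefSeq on the GRCr8 assembly and matched for 5 of the 6 members, show what makes these guides a family and why the passenger strand is not part of it. The seed is in capitals, and each sequence runs 5′ to 3′.
miR-15b-5p: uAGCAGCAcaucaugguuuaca
miR-16-5p: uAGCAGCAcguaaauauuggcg
miR-195-5p: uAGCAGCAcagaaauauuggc
miR-497-5p: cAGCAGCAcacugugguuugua
miR-322-5p: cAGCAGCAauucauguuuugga
miR-15b-3p: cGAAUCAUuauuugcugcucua
The first 4 share the seed AGCAGCA, as does miR-322-5p, which is not a member and is shown because its level was compared with theirs; no other miRNA in the sequence table has this seed. By the longest run of bases shared past the seed, the guides fall into pairs across their hairpin clusters. The counts of identical positions given next include the seed. miR-16-5p and miR-195-5p were identical at 19 of the 21 positions they share and have the run AAAUAUUGGC in common. miR-15b-5p and miR-497-5p were identical at 16 of 22 positions and share a run of 6 bases past the seed. By identical positions this pair stands out less. miR-15b-5p matched miR-16-5p at 14 of 22 positions and miR-195-5p at 14 of 21, with a longest run of 3 bases past the seed in each case. miR-15b-3p has the seed GAAUCAU, which no other miRNA in the sequence table carries. miR-15a-5p had no entry in that table. In the GRCr8 gene table Mir15b and Mir16 are neighbours inside the gene Smc4, a subunit of the condensin complex, and Mir497 and Mir195 are neighbours between Bcl6b and C10h17orf49.

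The libraries held 2665943 to 9665416 counts and were of liver by their markers: the 3 hepatocyte products (both arms of miR-122, and miR-192-5p) summed to 159954 to 275649 CPM (counts per 1000000 counts) over the 35 libraries. The first principal component (46.18% of the variance) put 14 libraries, all controls and the low dose except day 7, apart from the other 21. Comparisons of one side with the other include that division, whose part in the results was not tested. Control day 7 replicates 2 and 3 were the most extreme, so results on day 7 are also given without them. All doses of one day share their control libraries.

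miR-16-5p, the most abundant guide, made up 72.3 to 82.9% of the CPM of the 5 guides in the 35 libraries (median 77.3%) and ranked 21 among all miRNAs by mean CPM. In the controls it stood at 11173, 12183 and 8885 CPM on day 3, at 12668, 19836 and 16127 on day 7, and at 8743 and 11364 on day 14. At the high dose it stood at 7067, 5617 and 5919 CPM on day 3, at 5860, 5851 and 5652 on day 7, and at 5899, 5686 and 5390 on day 14. Every high dose library was below every control library, and so was every middle dose library, at 5142 to 6967 CPM. These libraries also lie on opposite sides of the first principal component. How many of the 328 miRNAs separate from the controls in this way was not counted, here or for the members below. Averaged over days, miR-16-5p fell by 1.04 ± 0.09 on the log2 scale at the high dose (log2 fold change ± SE, 9 treated against 8 control libraries), which is 2.05-fold lower, with an adjusted p of 2.58e-11 in edgeR (quasi-likelihood F-test, adjusted by the Benjamini-Hochberg method over the 328 miRNAs). At the middle dose it fell by 0.98 ± 0.09. The adjusted p, by edgeR, was 9.72e-11.

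All 5 guides were lower at the high dose averaged over days, and the passenger strand was higher, each past the threshold of an adjusted p of 0.05 in edgeR. The median log2 fold change of the 6 members was -0.70, beside -0.04 over all 328 miRNAs. The same 6 passed in the same directions at the middle dose, with a median of -0.68 beside -0.02. These calls are to be read against the background: 62.8% of the 328 miRNAs passed at the high dose, 31.4% as lower ones, and 61.9% passed at the middle dose, 29.9% as lower ones. In bulk liver, fewer cells of a type and less RNA per cell cannot be told apart.

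miR-15a-5p, a family guide encoded at another locus than miR-15b, followed miR-16-5p more closely than any other member did. It stood at 717 to 885 CPM in controls of day 3, 1001 to 1503 on day 7 and 806 to 1079 on day 14, and at 487 to 600, 543 to 616 and 607 to 686 CPM at the high dose on the same days. The control and high dose libraries did not overlap on any day or over all days, and neither did control and middle dose libraries. The log2 fold change averaged over days was -0.76 ± 0.09 at the high dose (adjusted p = 9.34e-09, edgeR) and -0.86 ± 0.09 at the middle dose (adjusted p = 1.07e-09, edgeR).

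miR-15b-5p, the guide from the hairpin next to miR-16 in Smc4, was scarcer, at 0.8 to 2.1% of the CPM of the 5 guides. Its control libraries read 188, 227 and 164 CPM on day 3, 216, 286 and 197 on day 7, and 119 and 116 on day 14. At the high dose they read 183, 132 and 157 CPM on day 3, 126, 101 and 112 on day 7, and 86.6, 75.4 and 78.8 on day 14. The high dose libraries overlapped the controls on day 3 and lay below them on days 7 and 14. Averaged over days, miR-15b-5p fell by 0.63 ± 0.11 on the log2 scale at the high dose (adjusted p = 1.08e-05, edgeR). Without day 7 the high dose value was -0.42 and still passed. At the middle dose it fell by 0.93 ± 0.11 (adjusted p = 1.47e-08, edgeR), with all 9 libraries, at 76.4 to 98.6 CPM, below all 8 controls.

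miR-497-5p and miR-195-5p, the guides of the other cluster, moved less evenly. miR-497-5p stood at 875 to 1624 CPM in the 8 controls and at 564 to 810 CPM in the 9 high dose libraries, without overlap. Its log2 fold change averaged over days was -0.82 ± 0.10 at the high dose (adjusted p = 1.55e-08, edgeR) and -0.50 ± 0.10 at the middle dose (adjusted p = 5.47e-05, edgeR). miR-195-5p had the smallest change of the 5 guides in both averages. Its controls spread from 471 to 894 CPM, both ends being the 2 day 14 libraries, and the high dose libraries, at 428 to 575 CPM, overlapped them. Its log2 fold change averaged over days was -0.41 ± 0.10 at the high dose (adjusted p = 0.000734, edgeR) and -0.47 ± 0.10 at the middle dose (adjusted p = 0.00017, edgeR). Without day 7 these were -0.30 (adjusted p = 0.0501) and -0.28 (adjusted p = 0.0686), neither past the threshold, though both passed with all days.

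**Figure D1:**
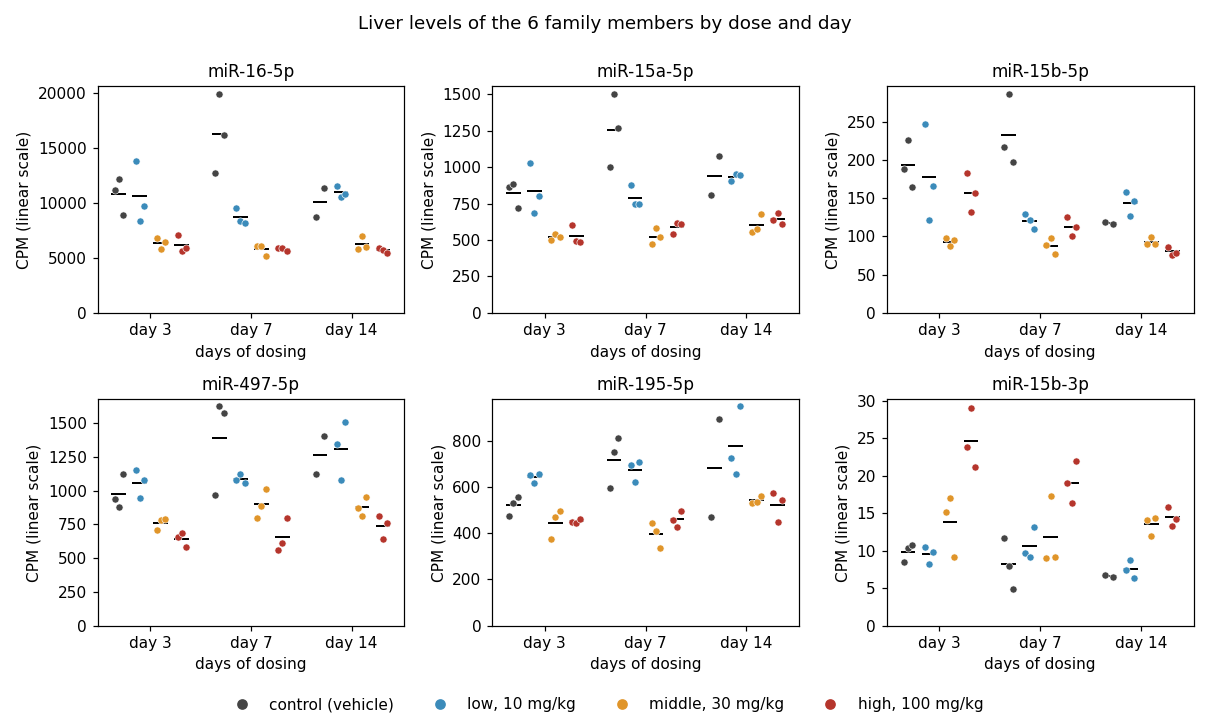
CPM on a linear axis from 0 (each panel with its own range) for the 6 members, by day of dosing and dose; points are libraries and black bars are group means (n = 3, control day 14 n = 2). The middle and high dose points of miR-16-5p lie between 5142 and 7067 CPM, under all control points, while those of miR-15b-3p lie mostly above the controls.

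The passenger strand miR-15b-3p went the other way. It is rare, with 17 to 129 counts per library, so single values carry a wide counting error. The controls read 8.5, 10.4 and 10.7 CPM on day 3, 11.7, 7.9 and 4.9 on day 7, and 6.8 and 6.5 on day 14. The high dose libraries read 23.8, 29.0 and 21.2 CPM on day 3, 19, 16.3 and 21.9 on day 7, and 15.8, 13.3 and 14.2 on day 14. All 9 high dose libraries were above all 8 controls. miR-15b-3p rose by 1.21 ± 0.16 on the log2 scale averaged over days, or 2.31-fold (adjusted p = 1.01e-07, edgeR). At the middle dose it rose by 0.67 ± 0.16 (adjusted p = 0.000744, edgeR), with libraries at 9.0 to 17.3 CPM that overlapped the controls. Without control day 7 replicates 2 and 3 the high dose value was 0.99 and still past the threshold (adjusted p = 1.96e-05, edgeR), and the middle dose value was 0.40 (adjusted p = 0.0529, edgeR).

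The arms of miR-15b were then compared within each library, as the log2 ratio of miR-15b-5p to miR-15b-3p counts with 0.5 added to each, a measure that does not depend on scaling between libraries. In controls there were 15.2 to 39.5 counts of the guide per count of the passenger strand (median 19.9). At the high dose there were 4.52 to 7.63 (median 5.62) and at the middle dose 5.08 to 10.2 (median 6.36), both without overlap with the controls. The passenger strand thus made up 2.4 to 6.12% of the hairpin's counts in controls, 8.79 to 16.4% at the middle dose and 11.5 to 18.1% at the high dose. The log2 ratio differed from controls by -1.85 ± 0.16 (± SE) at the high dose, with -1.60 on day 3, -2.32 on day 7 and -1.64 on day 14. In the two-sided exact permutation test that exchanges libraries within a day, p was 0.00025, the smallest its 4000 arrangements can give, and 0.000375 adjusted over the 3 doses. At the middle dose the difference was -1.58 ± 0.18, with the same exact p and adjusted p. Without control day 7 replicates 2 and 3, which have the highest ratios of all libraries, the differences were -1.63 and -1.36 (adjusted p = 0.001875 in both exact tests). The high and middle doses differed by -0.27 ± 0.16 in this ratio, which did not pass (exact permutation p = 0.0985, or 0.1997 adjusted over 17 ratio tests added once the data had been seen). Both doses lie on one side of the division of the libraries, whose part in the ratio was not tested. Hairpins outside the family were not compared by this ratio. Among the cell type markers given below, edgeR called the arms of miR-145 (5p 2.03, 3p -0.45) and miR-143 (3p 0.32, 5p -0.32) in opposite directions at the high dose average. Both arms of miR-122 and of miR-126a fell there.

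At the low dose the ratio ran from 8.27 to 23.2 (median 14.7) and overlapped the controls. The difference from control was -0.45 ± 0.18 (exact permutation p = 0.0945, not past the threshold). The days were unlike each other, at -0.10 on day 3, -1.39 on day 7 and 0.13 on day 14. The 3 low dose libraries of day 7 had ratios of 8.27 to 13.16, below all 6 low dose libraries of days 3 and 14, at 14.13 to 23.23. That difference was -0.71 ± 0.26, with an exact permutation p of 0.02381 and 0.07437 after adjustment over the same 17 tests.

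**Figure D2:**
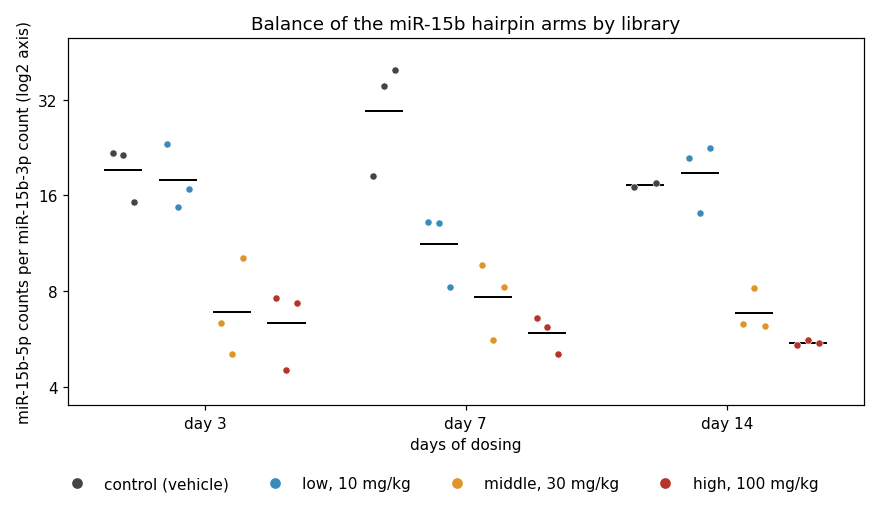
Counts of miR-15b-5p per count of miR-15b-3p (log2 axis) in each library, by day of dosing and dose; points are libraries and black bars are geometric means. Control libraries lie at 15.2 to 39.5 and high dose libraries at 4.52 to 7.63, with no overlap on any day.

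The other hairpins gave the same measure less firmly, within the 17 added tests. The ratio of miR-195-5p to miR-195-3p was lower at the middle dose by -0.63 ± 0.11 (exact permutation, adjusted p = 0.0085) and differed by -0.24 ± 0.15 at the high dose (exact permutation, adjusted p = 0.1997). The ratio of miR-16-5p to miR-16-3p differed by -1.15 ± 0.43 at the high dose (exact permutation, adjusted p = 0.07437), but miR-16-3p had only 1 to 21 counts per library. For miR-497 the ratio differed by -0.25 ± 0.59 at the high dose (exact permutation, adjusted p = 0.863). As single miRNAs, miR-16-3p, miR-195-3p and miR-497-3p did not pass in edgeR at the high dose average, at 0.24 ± 0.30, -0.14 ± 0.13 and -0.31 ± 0.41. miR-15a-3p, with at most 8 counts in a library, was not tested.

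Guides named for neighbouring hairpins did not keep one ratio at the high dose. The counts do not show which locus a mature guide came from. At the high dose miR-16-5p relative to miR-15b-5p was lower by -0.40 ± 0.09 on the log2 scale (exact permutation, adjusted p = 0.006375), and miR-497-5p relative to miR-195-5p was lower by -0.43 ± 0.12 (exact permutation, adjusted p = 0.00425). At the middle dose the same ratios differed by -0.04 ± 0.09 and -0.04 ± 0.14, neither past the threshold. These averages hide days of opposite sign. On days 3, 7 and 14 the first ratio differed by 0.28, -0.08 and -0.34, and the second by -0.12, 0.26 and -0.26. Whether the high and middle doses differ in these ratios was not tested.

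By day, 4 members passed at the high dose on day 3 (miR-15a-5p, miR-16-5p, miR-497-5p and miR-15b-3p, where 35.1% of the 328 miRNAs passed), all 6 on day 7 (51.8%) and 5 on day 14 (35.4%), where miR-195-5p, at -0.39 ± 0.19, did not. miR-16-5p had the largest fall of the guides on each day, by 0.79 ± 0.16, 1.49 ± 0.16 and 0.83 ± 0.17 on the log2 scale. Day 7 also had the highest control level: the high dose means were 6201, 5788 and 5658 CPM on days 3, 7 and 14, and the control means were 10747, 16210 and 10053 CPM. The difference of the high dose effect between day 7 and day 3 was called for 0 members (3 had an unadjusted p under 0.05 in edgeR) and for 0% of all miRNAs, of which 36 had an unadjusted p under 0.05. Between day 14 and day 3 it was also called for 0 members and 0%, with 0 members and 24 miRNAs at an unadjusted p under 0.05. DESeq2 called 0 members in both. Without control day 7 replicates 2 and 3, miR-16-5p fell by 1.16 on day 7 at the high dose, miR-195-5p was at -0.40 (adjusted p = 0.262, edgeR) and miR-15b-3p at 0.67 (adjusted p = 0.186, edgeR), and these 2 did not pass.

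On day 14 the calls rested on 2 control libraries. Without control day 14 replicate 2, only 2 members remained past the threshold at the high dose, miR-16-5p and miR-497-5p. The values that did not pass then were -0.40 for miR-15a-5p, -0.63 for miR-15b-5p and 1.0 for miR-15b-3p. miR-15b-3p also failed without control day 14 replicate 1 (0.99), and miR-15b-5p without high dose day 14 replicate 3 (-0.52).

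At the middle dose 3 members passed on day 3, all lower (38.1% of all miRNAs passed), 5 on day 7, all lower (50.9%), and 4 on day 14 (28.4%), 3 lower and miR-15b-3p higher. miR-15a-5p and miR-16-5p passed on all 3 days. miR-15b-5p fell by 1.05 ± 0.19 on day 3 and by 1.41 ± 0.19 on day 7, and was at -0.34 ± 0.21 on day 14, where its controls were lowest. miR-195-5p passed on day 7, at -0.86 ± 0.17, and miR-497-5p on day 7, at -0.63 ± 0.17, and on day 14, at -0.53 ± 0.18. miR-15b-3p was at 0.49 ± 0.26 on day 3, 0.50 ± 0.28 on day 7 and 1.01 ± 0.31 on day 14, only the last past the threshold. Without control day 7 replicates 2 and 3 its day 7 value was -0.11, and miR-497-5p was at -0.22 there, not past the threshold. Without control day 14 replicate 2 only miR-16-5p passed on day 14.

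**Figure D3:**
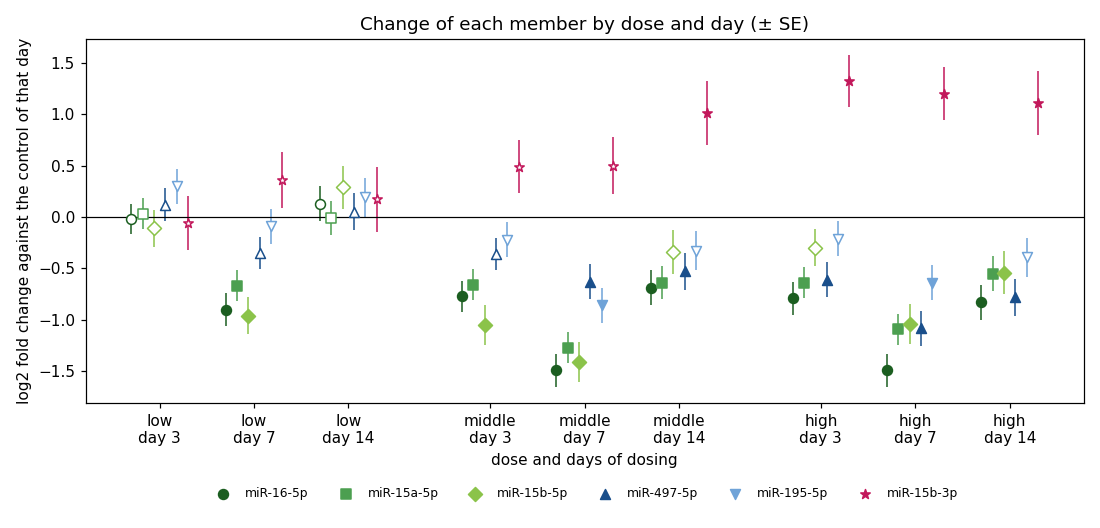
Log2 fold change of each member against the control of the same day (points) with its standard error (bars), by dose and day; filled points passed an adjusted p of 0.05 and open points did not. All 5 guides lie below 0 on each day at both higher doses, and at the low dose 3 of them pass on day 7 and 0 on days 3 and 14.

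At the low dose members passed on day 7 and not on day 3 or day 14. On day 7 there were 3, all lower, where 45.1% of the 328 miRNAs passed: miR-15b-5p at -0.96 ± 0.18 (adjusted p = 7.32e-05, edgeR), miR-16-5p at -0.90 ± 0.16 (adjusted p = 1.55e-05, edgeR) and miR-15a-5p at -0.67 ± 0.15 (adjusted p = 0.000383, edgeR). miR-497-5p was at -0.35 ± 0.16, miR-195-5p at -0.09 ± 0.17 and miR-15b-3p at 0.36 ± 0.27. On day 3 edgeR called 0 members and 0% of all miRNAs, with 0 members and 25 miRNAs at an unadjusted p under 0.05, and on day 14 likewise 0 and 0%, with 0 members and 11 miRNAs. DESeq2 also called 0 members on both days.

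The low dose libraries of miR-16-5p can be set beside their controls and beside the low dose on other days. They read 13781, 8302 and 9688 CPM on day 3, 9501, 8319 and 8166 on day 7, and 11546, 10540 and 10832 on day 14. The day 7 libraries lay below their own controls, at 12668 to 19836 CPM. Of the 3, 2 were within the range of the low dose on day 3, and all were below the low dose on day 14. The effect of the low dose on day 7 was more negative than on day 3 for 3 members (32.3% of all miRNAs passed), by -0.70 ± 0.21 for miR-15a-5p, -0.84 ± 0.26 for miR-15b-5p and -0.88 ± 0.22 for miR-16-5p. Against day 14 the same 3 passed (33.2% of all), at -0.66 ± 0.22, -1.24 ± 0.28 and -1.03 ± 0.23. Some of these calls rested on 1 library. Without low dose day 3 replicate 1 the differences from day 3 were -0.52 for miR-15a-5p and -0.53 for miR-15b-5p, neither past the threshold. Against day 14, miR-15a-5p was at -0.61 and did not pass without control day 14 replicate 1, or without low dose day 7 replicate 2 or 3.

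Compared without any control, the low dose on day 7 against the low dose on days 3 and 14 gave 0 called members in edgeR (2 at an unadjusted p under 0.05), where 30.2% of all miRNAs passed, and DESeq2 called 3. miR-15b-5p was at -0.41 ± 0.16 (adjusted p = 0.0517, edgeR) and miR-16-5p at -0.32 ± 0.14 (adjusted p = 0.0728, edgeR). Among the controls, miR-15a-5p was higher on day 7 than on day 3 by 0.61 ± 0.15 (adjusted p = 0.0295, edgeR) and miR-16-5p by 0.59 ± 0.15 (adjusted p = 0.0471, edgeR), where 1.52% of all miRNAs passed. DESeq2 called 3 members. For this DESeq2 count and the one above, the share of all miRNAs called is not given, so neither is a result about the family. Over the 35 fits that leave out 1 library, the call was lost in 11 for miR-15a-5p and in 26 for miR-16-5p. Without control day 7 replicates 2 and 3 neither of these 2 guides passed, at 0.30 and 0.25. Day 14 against day 3 in controls gave 0 called members (3 at an unadjusted p under 0.05) and 0% of all miRNAs, of which 29 had an unadjusted p under 0.05, and DESeq2 called 0 members. With those 2 libraries left out, miR-15b-5p, at -0.99, and miR-16-5p, at -0.69, still passed for the low dose on day 7, and miR-15a-5p, at -0.48 (adjusted p = 0.0854, edgeR), did not.

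Averaged over days, the low dose gave 1 called member, miR-16-5p at -0.27 ± 0.09 (adjusted p = 0.0364, edgeR), where 22.6% of all miRNAs passed. Without day 7 that value was 0.05 and did not pass.

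The doses were also compared with each other. Between the high and the middle dose, averaged over days, 3 members differed (17.4% of all miRNAs passed). miR-15b-3p was higher at the high dose by 0.54 ± 0.15 (adjusted p = 0.0104, edgeR) and miR-15b-5p by 0.30 ± 0.11 (adjusted p = 0.0483, edgeR), and miR-497-5p was lower by -0.32 ± 0.10 (adjusted p = 0.0185, edgeR). miR-16-5p differed by -0.05 ± 0.09, miR-15a-5p by 0.09 ± 0.09 and miR-195-5p by 0.06 ± 0.10, none of which passed. Without day 7 the count was 0, with 0.47 for miR-15b-3p, 0.27 for miR-15b-5p and -0.25 for miR-497-5p. The call for miR-15b-5p was also lost with the stricter CPM filter (adjusted p = 0.0561, edgeR), with the second of the repeat runs alone (0.0634) and in 13 of the 35 fits that leave out 1 library.

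On day 7, 3 members were lower at the middle than at the low dose (10.1% of all miRNAs passed): miR-195-5p by -0.77 ± 0.17, miR-15a-5p by -0.60 ± 0.15 and miR-16-5p by -0.59 ± 0.15. Without middle dose day 7 replicate 3 none of the 3 passed, at -0.53, -0.46 and -0.38 (adjusted p = 0.0985, 0.0751 and 0.154, edgeR), and without the low-count filter only miR-195-5p did. Over the 35 fits that leave out 1 library, the call was lost in 1 for miR-195-5p, in 3 for miR-15a-5p and in 7 for miR-16-5p. Between the high and the low dose on day 7, 5 members passed (24.1% of all): miR-497-5p at -0.72 ± 0.17, miR-16-5p at -0.58 ± 0.15, miR-195-5p at -0.55 ± 0.17, miR-15a-5p at -0.42 ± 0.15 and miR-15b-3p at 0.84 ± 0.26. Leaving out 1 library at a time ended the call in 27 of 35 fits for miR-15a-5p (down to -0.22), in 22 for miR-195-5p (down to -0.35), in 7 for miR-16-5p (down to -0.37), in 2 for miR-15b-3p and in 0 for miR-497-5p. The contrast also depended on the scaling, since the median over all 328 miRNAs was itself -0.20 and ran from -0.22 to 0.01 over the alternatives. Relative to that median the members stood at -0.53, -0.39, -0.36, -0.23 and 1.03, in the same order.

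The 12 groups were also put in order of their levels. With so few libraries per group, overlap of neighbours cannot tell a gradual order from a stepped one. Sorted by mean CPM, neighbouring groups overlapped in their libraries in 9 of 11 steps for miR-16-5p and in 10 of 11 for each other member. miR-16-5p had its highest group mean in control day 7 and its next gap after the low dose on day 7, which at 8662 CPM stood above all 6 middle and high dose groups, at 5658 to 6321 CPM. The gap of miR-15a-5p was at the same place, with 790.8 CPM at the low dose on day 7 and 520.1 to 642.7 CPM in those 6 groups. For the other members the gap lay elsewhere. The 5 guides together made 13260 CPM in control day 3, 19808 in control day 7 and 13060 in control day 14 (group means), and 7607 to 8351 CPM in the means of the 6 middle and high dose groups.

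miR-322-5p, which has the same seed and comes from another hairpin, fell as well, with log2 fold changes of -0.86 ± 0.08 at the high dose (adjusted p = 1.1e-10, edgeR) and -0.55 ± 0.08 at the middle dose (adjusted p = 9.36e-07, edgeR). At the low dose on day 7, where 3 members fell, it was at 0.19 ± 0.14. miR-503-5p, its cluster mate, averaged 0.857 CPM and was not tested.

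The miRNAs whose group means followed each member most closely were sought among 236 others with a mean of at least 10 CPM, by Pearson's r of log2 CPM over the 12 groups. All these groups share the division of the libraries described above, so high values are common and r is a description. miR-16-5p was most like miR-23b-3p and miR-126a-3p (r = 0.97 each) and miR-674-5p (0.96), and miR-15a-5p most like miR-33-5p, miR-126a-3p and miR-34c-5p (0.94 each). miR-15b-5p was most like miR-466b-5p (0.94), miR-18a-5p (0.93) and miR-25-3p (0.91), and miR-497-5p most like miR-872-5p (0.96), miR-676 and miR-24-2-5p (0.95 each). miR-195-5p reached only 0.85, with miR-28-5p, miR-101a-5p and miR-194-5p. miR-15b-3p was most like miR-190a-5p (0.93), miR-34a-5p (0.91) and miR-340-5p (0.90). Among members, miR-15a-5p and miR-16-5p had r = 0.95, and the arms of miR-15b had r = -0.32.

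Markers of other liver cell types moved with the guides in part. Their counts are to be read against the share of all 328 miRNAs that passed. This was 62.8% at the high dose average (31.4% as lower ones), 61.9% at the middle dose average (29.9%) and 45.1% at the low dose on day 7. The endothelial list, both arms of miR-126a, fell at the high dose, at the middle dose and at the low dose on day 7 (2 of 2 in each), with sums of 28706 to 37855 CPM in controls, 24377 to 34819 at the low dose, 20376 to 25148 at the middle dose and 18909 to 22701 at the high dose. Of 4 red blood cell miRNAs, cells known to be rich in miR-16-5p, 1 was higher and 1 lower at the high dose, with sums of 1521 to 4148 CPM in controls and 2262 to 4623 CPM at the high dose. Of 7 white blood cell miRNAs 1 was higher and 3 were lower, with sums of 1554 to 3172 and 1839 to 2885 CPM. The 3 hepatocyte miRNAs were all lower at the high dose, with sums of 187121 to 275649 and 170928 to 232418 CPM. Of 7 stellate and smooth muscle miRNAs 2 were higher and 3 lower, with sums of 36620 to 49985 CPM in controls and 46113 to 60715 at the high dose. Of 5 bile duct miRNAs 1 was higher and 2 were lower, with sums of 940 to 1950 and 864 to 1638 CPM. At the low dose on day 7, 3 of 7 white blood cell miRNAs were higher and 0 lower, with log2 fold changes of 2.04 for miR-342-3p and 1.73 for miR-142-5p. Stellate and smooth muscle miRNAs were higher in 2 of 7 and lower in 1, with 3.55 for miR-145-5p. The other arms of these hairpins, miR-342-5p, miR-142-3p and miR-145-3p, did not pass, at -0.60, 0.04 and 0.25. On that day 2 of 3 hepatocyte and 2 of 5 bile duct miRNAs were lower, and 0 of 4 red blood cell miRNAs passed. Averaged over days at the middle dose, 3 of 3 hepatocyte and 2 of 5 bile duct miRNAs were lower, 2 of 7 white blood cell miRNAs were higher and 1 lower, and 3 of 7 stellate and smooth muscle miRNAs were higher and 1 lower. Of the red blood cell miRNAs, 1 was higher and 1 lower there. None of the listed markers was at 0 in all libraries, and their part in the family's changes was not tested.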

How the data were processed

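The authors deposited raw counts for 763 mature miRNAs in 37 columns, without normalization. The build was rn6, according to the submitters' processing notes. Which aligner, counting program and miRNA release were used is not given in the sources used here. The handling of reads that fit more than 1 near-identical miRNA is not stated either, which makes levels of similar guides uncertain. Per the labels' protocols, libraries were made with TruSeq Small RNA kits from total liver RNA.

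Columns were matched to samples by name. Middle dose day 14 replicates 2 and 3 have 2 columns each, summed as repeat runs to 1 replicate. Replicates of a group differed by more than counting noise, so each was counted as its own library. Replicate numbers are in the labels but did not pair the libraries.

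The filterByExpr filter (minimum count 10) kept 328 miRNAs. After TMM scaling, the robust quasi-likelihood F-test of edgeR 4.0.16 (R 4.3.3) was run on all 35 libraries, 1 mean for each of the 12 groups, which left 23 residual degrees of freedom. Adjustment was by Benjamini-Hochberg within a comparison, with a threshold of 0.05. CPM uses TMM-scaled library sizes. Arm ratios were compared by exact permutation within days (scipy 1.17.1). The steps were tested on simulated data. Members, lists and comparisons were chosen with earlier results of these data known. All members are reported, with their other arms and the 3 most alike miRNAs of each. Also reported are miR-322-5p, which has the same seed, and its cluster mate miR-503-5p, whose seed differs at its last base. Alternatives were other scalings, filters and libraries, DESeq2 1.42.0, a replicate block and each library left out. Counting error alone sets a floor on precision, and no molecular identifiers are stated.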

Additional observations from a re-analysis of the deposited data

Results flagged for a closer look

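The effect of the low dose (treated against control of the same day) differed between days for 3 guides, by a test of the difference itself in edgeR. It was more negative on day 7 than on day 3 by -0.70 ± 0.21 for miR-15a-5p, -0.84 ± 0.26 for miR-15b-5p and -0.88 ± 0.22 for miR-16-5p on the log2 scale. It was also more negative than on day 14, by -0.66 ± 0.22, -1.24 ± 0.28 and -1.03 ± 0.23 for the same guides. These tests were added once the data had been seen. Without control day 7 replicates 2 and 3, the differences from day 3 were -0.42, -0.78 and -0.57, with adjusted p values of 0.331, 0.0863 and 0.142 in edgeR. Without low dose day 3 replicate 1 alone, miR-15a-5p was at -0.52 (adjusted p = 0.063, edgeR) and miR-15b-5p at -0.53 (adjusted p = 0.098, edgeR). Against day 14, with the 2 control libraries left out, miR-15a-5p was at -0.47 and did not pass (adjusted p = 0.261, edgeR), while miR-15b-5p and miR-16-5p still passed. miR-15a-5p also failed against day 14, at -0.61, without control day 14 replicate 1 or without low dose day 7 replicate 2 or 3.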

How the results depend on the processing

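At the high and middle doses averaged over days, all 6 members were called under every alternative except where miR-195-5p was lost without day 7 or miR-15b-3p (middle dose) without control day 7 replicates 2 and 3. The low dose average had 1 call, 3 with DESeq2 or its size factors, 2 with library size alone or a filter of CPM of at least 10, and 0 with only the doses compared, without day 7 or without those 2 controls. miR-16-5p changed sign there, to 0.05 without day 7. The middle dose on day 3 had 6 calls against controls of all 3 days, in place of 3. High minus middle had 0 without day 7. High minus low on day 7 had 2 with DESeq2's size factors or no filter, and 3 with DESeq2 or only that day's libraries. Low dose day 7 minus its other days had 3 with DESeq2, 2 with the other scalings, filters and library choice, and 1 with the replicate block. Control day 7 minus day 3 had 1 with DESeq2's size factors, library size alone or the CPM filter, and 0 with no filter, only those days, the replicate block or without the 2 far controls. Beside counts of members under alternatives, here and elsewhere, the share of all miRNAs called is not given. A shift of the members is therefore not told apart from a shift of all miRNAs. The cause of these shifts was not tested.

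Leaving out 1 library at a time gave 0 to 3 calls for the low dose average, 2 to 6 for the high and 1 to 4 for the middle dose on day 14, 3 to 5 for the low dose on day 7, 2 to 5 for high minus low on day 7, 0 to 3 for low dose day 7 minus its other days, 0 to 1 for the high dose effect on day 7 minus day 3, and 0 to 3 for control day 7 minus day 3. The low dose arm difference of miR-15b ran from -0.57 to -0.38, past the threshold in 1 of 17 such fits. In 128 pairings of a value with an alternative, a value called in neither setting changed sign. The replicate block left the other counts within 1.5 times, with arm differences of -1.88, -1.60 and -0.56 at the high, middle and low dose. Same-numbered libraries had a median correlation of -0.0095 over 51 pairs, 14 of them over 0.1. Differently numbered libraries had a median of -0.0073 over 102 pairs, 28 of them over 0.1, so the numbers gave no pairing. miR-15b-3p, at 17 to 129 counts, sets the precision of the arm ratio.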
